A study of Mus musculus with 6 samples.

Results

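The genes of the endothelial glycocalyx described here were the membrane proteoglycans (syndecans and glypicans), the enzymes that build, sulfate and edit glycosaminoglycan chains, and the enzymes of hyaluronan. They were chosen by gene symbol. 39 members were found among the 12623 genes of the deposited table, and all 39 were among the 12458 genes tested. By role they were 4 syndecan and 4 glypican core proteins, 4 precursor and linker enzymes, 4 enzymes of heparan sulfate elongation, 6 of heparan sulfate modification and 2 of its later editing, 5 enzymes of chondroitin sulfate chain synthesis, 5 chondroitin and dermatan sulfotransferases, 1 other carbohydrate sulfotransferase, and 4 genes of hyaluronan synthesis and breakdown.

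The glycocalyx is the layer of glycoproteins, proteoglycans and hyaluronan on the luminal face of EC. In a proteoglycan, long sugar chains stand on a core protein. The chains start with a linker tetrasaccharide, are extended by polymerases (the exostosins for heparan sulfate and the chondroitin synthases for chondroitin sulfate), and are then sulfated, which creates binding sites for growth factors, chemokines and antithrombin. Hyaluronan has no core protein, is extruded by synthases at the plasma membrane, and is cut by hyaluronidases. In the lung this layer is known as a barrier to fluid and leukocytes.

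The study asked how the transcriptome of lung EC changes with the acquisition of quiescence, between the growing lung of infant mice and the lung of young adult mice. Infant mice were in the second week after birth and young adult mice in about the third month, all of the strain C57BL/6N, with no allele or agent that differed between groups in the labels. EC were sorted from the lungs as living cells with CD31 and CD34 on their surface and without PTPRC, LYVE1, LY76 or PDPN. Lyve1 transcripts were still measured, at 68.6 to 171.4 RPKM in infant and 252.9 to 396.4 RPKM in young adult libraries. mRNA was sequenced in 3 infant and 3 young adult libraries, which the submitters call independent biological replicates. Values are RPKM as the authors computed them, that is, reads of a transcript divided by its length and by the mapped reads of the library. The number of reads per library is unknown from these values, and so is the counting error of a single value.

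The infant libraries stood apart in more than age. The Y-linked gene Ddx3y was measured at 16.5 to 21.9 RPKM in the infant libraries and was listed at 0 in all 3 young adult libraries, although the methods name female mice, so sex and age cannot be told apart, and 3 members (Gpc3, Gpc4 and Chst7) lie on X. Markers of cells other than EC also moved with age. Of 13 fibroblast markers 12 were called lower in young adult EC and 0 were listed at 0 in either whole group; their summed level was 354.5 to 1352 RPKM in infant and 13.2 to 28.8 RPKM in young adult libraries. Of 14 mural markers 13 were called lower (sums of 163.2 to 381.0 against 20.6 to 30.1 RPKM). Globin transcripts took 3.41% to 23.5% of all RPKM in infant and 0.307% to 0.487% in young adult libraries. The 16 endothelial markers summed to 4245 to 6348 RPKM in infant and 6865 to 7173 RPKM in young adult libraries. In such bulk samples, fewer cells of a type and less RNA per cell cannot be told apart. Infant replicate 2 held the fewest fibroblast and mural transcripts of the infant libraries and the most endothelial ones. Its ratio to the other infant libraries is given for each called member below.

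In the comparison of young adult with infant EC, 10 of the 39 members (25.6%) were called, where a call needs an adjusted p under 0.05 (limma on log2(RPKM + 1), Benjamini-Hochberg over all genes tested) and a log2 fold change beyond 0.81 in either direction. Over all genes tested 11.4% were called. 2 members (5.13%) were higher in young adult EC, against 3.33% of all genes, and 8 (20.5%) were lower, against 8.1%. The higher ones were the hyaluronidase Hyal2 and the heparan sulfate 3-O-sulfotransferase Hs3st1. The lower ones were the core proteins Sdc1, Sdc2, Sdc4, Gpc3 and Gpc4, the carbohydrate sulfotransferase Chst2, the hyaluronan synthase Has1 and the extracellular sulfatase Sulf1. The groups did not overlap for 21 members (53.8%), 4 of them higher and 17 lower, where 43.4% of all genes did not overlap. At an adjusted p under 0.05 with no demand on the fold there were 16 members (41.0%), against 25.5% of all genes. Over the members the log2 fold change (young adult against infant) had a median of -0.25, and over all genes of -0.07. 5 members (Chpf, Gpc1, Gpc2, Gpc3 and Has1) reached the tested level of 1 RPKM only in infant libraries, and so entered the test through the group in which they were higher; the other 34 held 2 higher and 6 lower calls. The RPKM of all members together stood at 446.1, 402.9 and 434.7 in the infant libraries and at 448.5, 452.7 and 455.4 in the young adult ones.

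**Figure D1:**
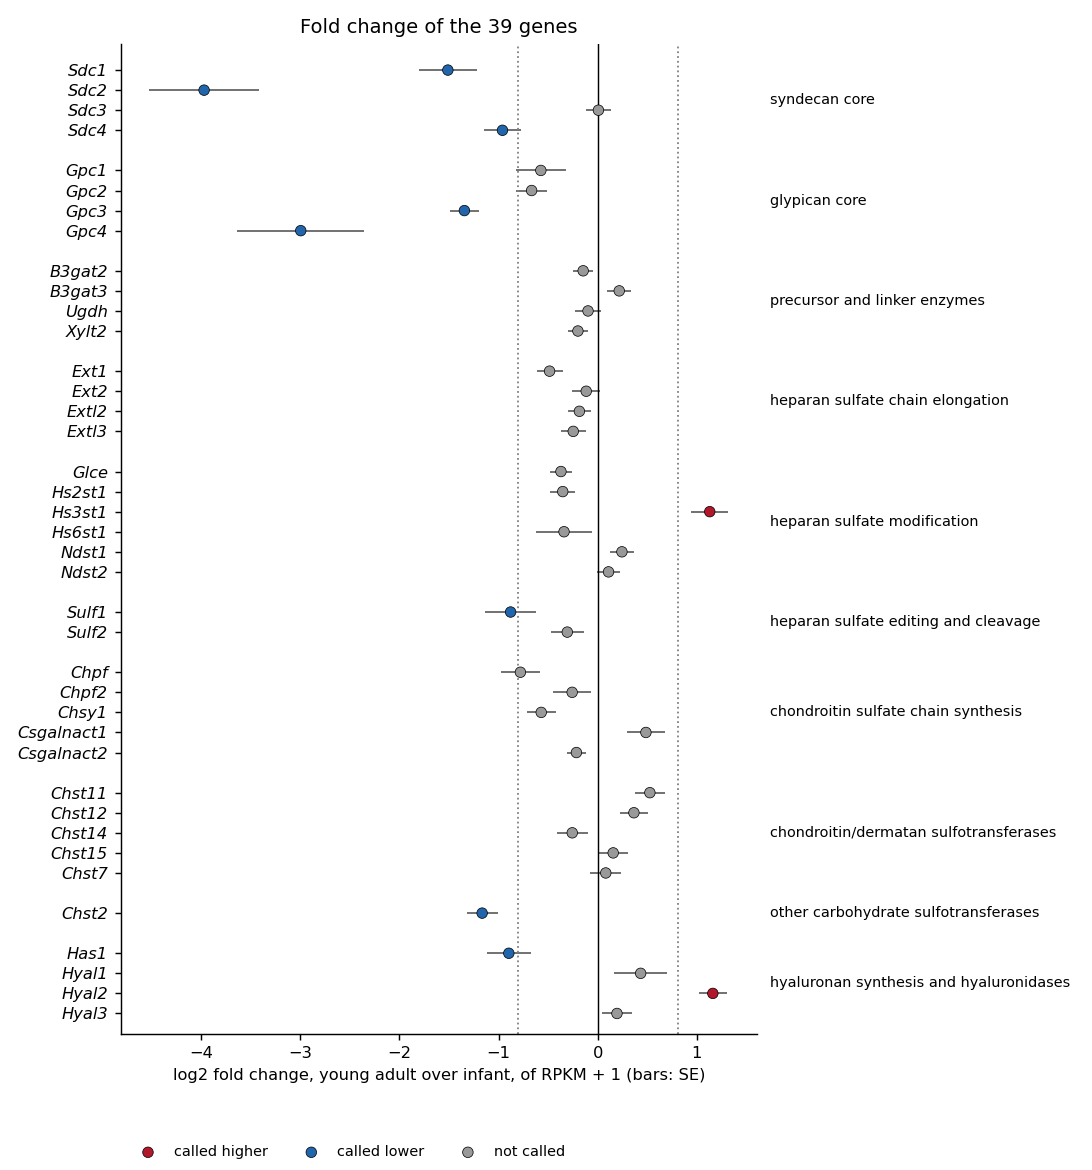
log2 fold change (young adult minus infant, on log2(RPKM + 1)) of the 39 members in their role groups, with bars of 1 standard error and dotted lines at the fold threshold of 0.81. The 2 members called higher reach 1.16 (Hyal2) and 1.13 (Hs3st1), the 8 called lower run from -0.88 (Sulf1) to -3.97 (Sdc2), and most of the chain-building enzymes lie near 0.

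The stretch of 200 bases before the start site is shown for 4 called members, the 2 that were higher and the syndecans Sdc4 and Sdc1, to put the letters of a higher and a lower group side by side. They come from RefSeq promoters on GRCm38.p6, whose coordinates are those of mm10, and are written 5′ to 3′ on the strand of the gene. Capitals mark GGGCGG, the GC box known as the binding letters of Sp family factors. Sdc1 was shown in place of Gpc4 after the windows were seen, because the window of Gpc4 did not open the transcript measured here.
Hyal2, chr9:107568963-107569162, plus strand: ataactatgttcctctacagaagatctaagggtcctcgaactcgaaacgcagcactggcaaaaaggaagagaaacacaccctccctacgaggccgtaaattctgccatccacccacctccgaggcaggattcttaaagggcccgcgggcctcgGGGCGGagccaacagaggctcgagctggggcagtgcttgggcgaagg
Hs3st1, chr5:39644632-39644831, minus strand: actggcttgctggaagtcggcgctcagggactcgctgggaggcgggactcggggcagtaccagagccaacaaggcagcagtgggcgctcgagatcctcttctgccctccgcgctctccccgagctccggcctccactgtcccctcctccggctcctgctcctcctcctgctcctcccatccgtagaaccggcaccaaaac
Sdc4, chr2:164443189-164443388, minus strand: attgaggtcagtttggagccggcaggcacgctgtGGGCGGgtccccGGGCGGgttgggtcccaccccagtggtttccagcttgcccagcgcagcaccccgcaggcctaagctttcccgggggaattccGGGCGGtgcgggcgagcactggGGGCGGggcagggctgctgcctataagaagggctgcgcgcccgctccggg
Sdc1, chr12:8771196-8771395, plus strand: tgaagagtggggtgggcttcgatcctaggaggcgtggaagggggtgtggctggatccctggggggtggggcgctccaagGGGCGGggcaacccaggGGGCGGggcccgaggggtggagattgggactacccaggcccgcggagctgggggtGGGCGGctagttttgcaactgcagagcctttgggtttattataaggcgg
The Hyal2 stretch held 1 GC box, that of Hs3st1 held 0, that of Sdc4 held 4 and that of Sdc1 held 3. Of the other members called lower with a promoter, Gpc3 held 3 within 250 bases, Chst2 and Gpc4 held 1 each and Has1 held 0. The syndecans shown thus do not stand for all members called lower. Among the 31 members with a promoter in the RefSeq table, 25 (80.6%) had GGGCGG on either strand within 250 bases before the start site, as did 58.2% of the 9026 tested genes with a promoter there and 32.7% of all 32851 promoters. Of the 8 called members with a promoter, 6 had it. Among these 6, the windows of Chst2, Gpc3 and Gpc4 did not open the transcript measured here. Among the members not called, the same held for Chpf, Chsy1, Glce, Hs2st1 and Hyal3. All of these windows are in the counts. For members with more than 1 window, a window that opened the measured transcript was preferred. For the tested genes the window with the lowest coordinate was taken, so the 2 shares rest on unlike choices. The ETS core CGGAAG was in 2 of the 31 (6.45%, against 25.8% of tested genes and 13.6% of all promoters) and the TATA letters TATAAA were in 1 (3.23%, against 6.48% and 12.4%). Both strands were searched for all 3 motifs, each without regard to the others, and a GC box and an ETS core can share the letters CGG. The tested genes were added as a second reference after the share over all promoters had been seen.

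Syndecans are transmembrane core proteins that carry heparan sulfate, and 3 of the 4 were called lower. Sdc2 (chromosome 15, 32920723 to 33034721 on GRCm38.p6), a syndecan known from mesenchymal cells and from angiogenic EC, stood at 62.8, 13.2 and 69.5 RPKM in infant replicates 1, 2 and 3 and at 1.3, 2.0 and 1.4 RPKM in young adult replicates 1, 2 and 3. Every young adult library lay below every infant library, and infant replicate 2 lay at 0.2 of the mean of the other infant libraries. The mean fell from 48.5 ± 30.8 to 1.57 ± 0.379 RPKM (SD, n = 3 in each group), with a log2 fold change of -3.97 ± 0.55 (SE) and an adjusted p of 0.00385 by limma. It was called with any 1 library left out, and was the only member whose change passed a test against the fold threshold itself (limma's treat).

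Sdc4 (chromosome 2, 164424247 to 164443188 on GRCm38.p6), the syndecan of focal adhesions, stood at 39.4, 27.4 and 41.9 RPKM in the infant libraries and at 15.0, 17.7 and 21.3 RPKM in the young adult ones. The groups did not overlap, and infant replicate 2 was again the lowest of its group. Its mean fell from 36.2 ± 7.75 to 18.0 ± 3.16 RPKM (log2 fold change -0.96 ± 0.19, adjusted p 0.0115 by limma). Without young adult replicate 1 or 2 the call was lost, at an adjusted p of 0.0503 and 0.053 by limma. Sdc4 had the highest level of the syndecans in every young adult library.

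Sdc1 (chromosome 12, 8771396 to 8793716 on GRCm38.p6), the syndecan best known from epithelia and plasma cells, stood at 7.8, 4.7 and 6.2 RPKM in the infant libraries and at 0.6, 1.7 and 2.6 RPKM in the young adult ones (log2 fold change -1.51 ± 0.29, adjusted p 0.0118 by limma). The groups did not overlap. In the young adult libraries the order of Sdc1 was that of the summed 11 epithelial markers, which measured 1836, 4822 and 8378 RPKM, and of the summed 13 leukocyte markers, which measured 143.1, 308.9 and 555.7 RPKM. In the infant libraries its order was the reverse of both sums. There the epithelial markers summed to 6503, 11371 and 8482 RPKM and the leukocyte markers to 321.5, 522.1 and 450.7 RPKM. Most of the epithelial sum was Sftpc and Scgb1a1, and most of the leukocyte sum was Lyz2. Without Lyz2 the remaining 12 leukocyte markers summed to 8.8, 23.3 and 40.2 RPKM in the young adult libraries and to 46.2, 55.0 and 120.5 RPKM in the infant ones. That infant order was no longer the reverse of Sdc1. The 13 fibroblast markers summed to 1352, 354.5 and 965.7 RPKM in the infant libraries, the order of Sdc1 there. In the young adult libraries they summed to 13.2, 28.8 and 25.1 RPKM, which was not its order. Of the epithelial markers 5 were called lower and 1 higher, of the leukocyte markers 4 were called lower, and 0 of either list were listed at 0 in a whole group. The part of epithelial cells, leukocytes and fibroblasts in the values of Sdc1 was not tested.

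Sdc3, named here after its values were seen as the remaining syndecan, stood at 11.9, 16.2 and 12.8 RPKM in the infant libraries and at 14.1, 13.1 and 13.6 RPKM in the young adult ones. Its groups overlapped, with a log2 fold change of 0.01 ± 0.12 and an adjusted p of 0.973 by limma. Together the 4 syndecans summed to 121.9, 61.5 and 130.4 RPKM in the infant libraries and 31.0, 34.5 and 38.9 RPKM in the young adult ones. As a share of this sum, which does not depend on the scaling of a library, Sdc2 went from 42.1% ± 17.9 to 4.53% ± 1.14 (SD, n = 3), Sdc4 from 36.3% ± 7.12 to 51.5% ± 3.19, and Sdc3 from 15.3% ± 9.56 to 39.5% ± 5.42. In these 3 shares the groups did not overlap, with p = 0.1 each in a two-sided exact permutation test, the smallest that 3 against 3 libraries can give (0.18 after Benjamini-Hochberg adjustment over 9 shares). The share of Sdc1 overlapped, at 6.27% ± 1.45 and 4.52% ± 2.40 (exact permutation p = 0.5, adjusted 0.563). The share of a syndecan rises when another falls, so the 4 shares are not separate measurements.

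**Figure D2:**
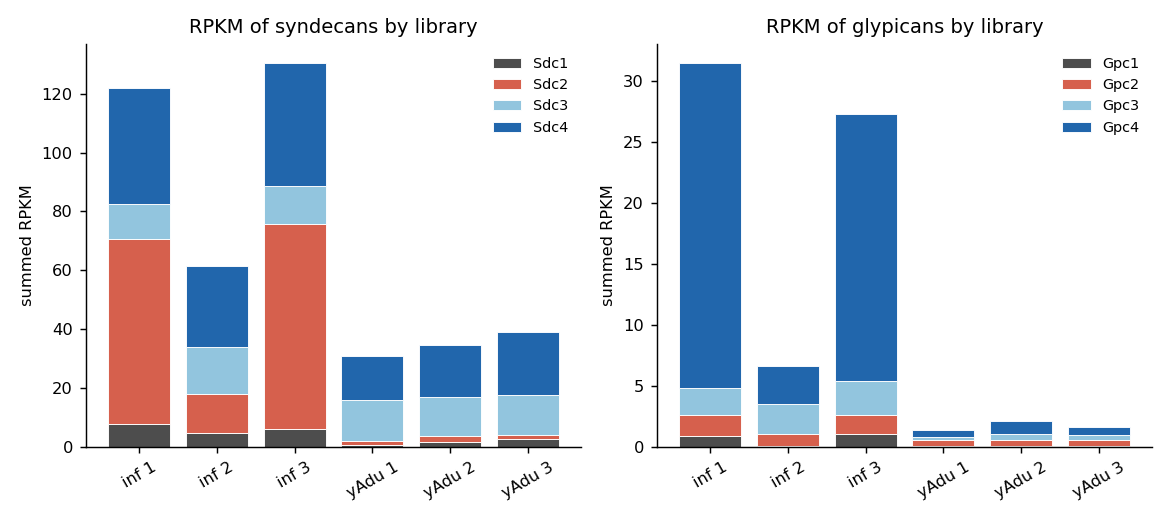
Summed RPKM of the syndecans (left) and glypicans (right) in each infant (inf) and young adult (yAdu) library, stacked by gene on a linear axis from 0. The syndecan sum is 61.5 to 130.4 RPKM in infant and 31.0 to 38.9 RPKM in young adult libraries, and the parts that shrink most are Sdc2 and Gpc4, while Sdc3 stays at 11.9 to 16.2 RPKM throughout.

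Glypicans hold heparan sulfate on a core with a glycosylphosphatidylinositol anchor, and 2 of the 4 were called lower. Gpc4, a glypican that binds Wnt and fibroblast growth factors, stood at 26.7, 3.1 and 21.9 RPKM in the infant libraries and at 0.6, 1.0 and 0.6 RPKM in the young adult ones. The groups did not overlap, but infant replicate 2 lay at 0.128 of the mean of the other infant libraries. The log2 fold change was -3.00 ± 0.64 with an adjusted p of 0.016 by limma. Without infant replicate 2 it was -3.87, at an adjusted p of 3.3e-06, and with any other library left out the call was lost by a small margin (adjusted p 0.0508 to 0.0623 by limma).

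Gpc3, the glypican that restrains hedgehog signalling in growing tissues, stood at 2.2, 2.4 and 2.8 RPKM in the infant libraries and at 0.2, 0.5 and 0.4 RPKM in the young adult ones. The groups did not overlap, infant replicate 2 lay at 0.96 of the others, and the call held with any 1 library left out (log2 fold change -1.35 ± 0.14, adjusted p 0.00157 by limma). At these levels the table's step of 0.1 RPKM is a large part of each young adult value. Gpc3 and Gpc4 are neighbours on X, 107502 bases apart (Gpc4 at 52051007 to 52164923 and Gpc3 at 52272426 to 52613974 on GRCm38.p6, whole genes with introns), and the span of Gpc3 overlaps another gene. The remaining glypicans were low throughout: Gpc1 stood at 1.1 RPKM or less and Gpc2 at 1.7 RPKM or less in every library. Gpc2 fell from 1.7, 1.0 and 1.5 RPKM in the infant libraries to 0.5 RPKM in each young adult library. Its adjusted p was 0.0198 by limma, but its log2 fold change of -0.67 ± 0.15 on log2(RPKM + 1) was below the fold threshold. Gpc1 overlapped between groups (-0.57, adjusted p 0.129 by limma). The 4 glypicans summed to 31.5, 6.6 and 27.3 RPKM in the infant libraries and 1.4, 2.1 and 1.6 RPKM in the young adult ones. Of that sum Gpc4 held 70.7% ± 20.6 in infant and 42.7% ± 5.06 in young adult libraries (exact permutation p = 0.2, adjusted 0.3), and Gpc3 held 17.9% ± 16.1 and 21.0% ± 5.87 (exact permutation p = 0.8, adjusted 0.8). The shares of Gpc2 (8.68% ± 5.60 and 30.3% ± 6.01) and Gpc1 (2.80% ± 1.26 and 6.05% ± 1.20) did not overlap between groups (exact permutation p = 0.1 each, adjusted 0.18), and rest on values of 1.7 RPKM or less.

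Of the 4 precursor and linker enzymes 0 were called. Their 2 most abundant were Ugdh, which makes the UDP-glucuronate that every one of these chains needs, and B3gat3, which adds the last sugar of the linker. Ugdh stood at 7.4, 5.5 and 6.1 RPKM in the infant libraries and at 6.1, 5.1 and 6.3 RPKM in the young adult ones (log2 fold change -0.10 ± 0.13, adjusted p 0.604 by limma). B3gat3 measured 5.2, 6.7 and 6.4 RPKM and 7.4, 6.5 and 7.8 RPKM (0.22 ± 0.12, adjusted p 0.211 by limma). The groups overlapped for both. Of the others, B3gat2 (log2 fold change -0.15) overlapped between groups, while Xylt2, which starts the linker, did not overlap but did not pass the test (-0.20, adjusted p 0.177 by limma).

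Of the 4 enzymes of heparan sulfate elongation 0 were called, although all 4 had a lower fitted mean in young adult EC. Ext2, a subunit of the polymerase, stood at 12.9, 11.2 and 10.3 RPKM in the infant libraries and at 8.7, 10.5 and 12.5 RPKM in the young adult ones, with overlap (log2 fold change -0.12 ± 0.14, adjusted p 0.578 by limma). Extl3, which starts the chain, measured 12.3, 9.4 and 9.0 RPKM and 7.8, 8.7 and 8.7 RPKM. Its groups did not overlap, but the difference did not pass the test (-0.25 ± 0.13, adjusted p 0.189 by limma). Extl2 overlapped between groups (-0.19). Ext1, the partner of Ext2 in the polymerase, had a mean of 5.77 ± 1.01 RPKM in infant and 3.80 ± 0.265 RPKM in young adult EC, with an adjusted p of 0.0322 by limma but a change below the fold threshold (log2 fold change -0.49 ± 0.13).

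Among the 6 enzymes that modify heparan sulfate, Hs3st1 was called higher. This sulfotransferase (chromosome 5, 39613935 to 39645592 on GRCm38.p6) adds the 3-O-sulfate that makes the antithrombin-binding sequence. It stood at 18.4, 30.2 and 19.6 RPKM in the infant libraries and at 55.3, 44.4 and 50.1 RPKM in the young adult ones, so that every young adult library was above every infant library. The mean rose 2.20-fold, from 22.7 ± 6.49 to 49.9 ± 5.45 RPKM (log2 fold change 1.13 ± 0.19, adjusted p 0.00684 by limma), and the call held with any 1 library left out. Infant replicate 2, with the highest endothelial marker sum of its group, was also the infant library with the most Hs3st1, at 1.59 times the mean of the other infant libraries. In every library Hs3st1 had the highest level of the 6 per length of transcript.

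Glce, the epimerase that turns glucuronate into iduronate, stood at 8.0, 7.5 and 7.4 RPKM in the infant libraries and at 5.9, 6.3 and 4.9 RPKM in the young adult ones. Its groups did not overlap and its adjusted p was 0.0423 by limma, but the change was below the fold threshold (log2 fold change -0.37 ± 0.11). The N-deacetylase/N-sulfotransferases Ndst1 and Ndst2, which begin the modification, were not called. Ndst1 held 57.8% ± 5.29 of their sum in infant and 60.5% ± 2.04 in young adult libraries, with overlap (exact permutation p = 0.5, adjusted 0.563). The O-sulfotransferases Hs2st1 (log2 fold change -0.35, adjusted p 0.0729 by limma) and Hs6st1 (-0.34, adjusted p 0.406 by limma) were not called either. Summed over the 6 enzymes, the infant libraries held 39.0, 47.7 and 40.1 RPKM and the young adult ones 73.6, 61.3 and 67.2 RPKM, and Hs3st1 was the largest part of each sum.

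Sulf1 (chromosome 1, 12692197 to 12861192 on GRCm38.p6) and Sulf2 are sulfatases that take 6-O-sulfates off finished heparan sulfate outside the cell. Sulf1 stood at 13.7, 5.8 and 11.5 RPKM in the infant libraries and at 5.1, 5.1 and 4.4 RPKM in the young adult ones. No young adult value reached the infant range, but infant replicate 2 lay closer to the young adult values than to the other infant libraries. The call, with a log2 fold change of -0.88 ± 0.26 and an adjusted p of 0.0436 by limma, held only without infant replicate 2 (-1.21, adjusted p 2.5e-04) and was lost with any other library left out (adjusted p 0.109 to 0.128 by limma). Sulf2 measured 2.0, 2.0 and 1.3 RPKM and 0.9, 1.3 and 1.5 RPKM, with overlap (log2 fold change -0.31 ± 0.17, adjusted p 0.206 by limma).

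Of the 5 enzymes of chondroitin sulfate synthesis 0 were called. Csgalnact1, which commits a linker to chondroitin, stood at 23.4, 35.1 and 19.4 RPKM in the infant libraries and at 35.0, 36.2 and 35.9 RPKM in the young adult ones. The highest infant value, in replicate 2, lay among the young adult values, and the difference did not pass the test (log2 fold change 0.49 ± 0.19, adjusted p 0.101 by limma). Without infant replicate 2 the log2 fold change was 0.72, below the fold threshold, at an adjusted p of 0.00189 by limma. Chpf2, a polymerizing factor, measured 9.3, 6.4 and 6.0 RPKM and 4.4, 6.4 and 6.8 RPKM (-0.26 ± 0.19, adjusted p 0.35 by limma). The polymerase subunits Chsy1 (log2 fold change -0.57, adjusted p 0.0268 by limma) and Chpf (-0.78, adjusted p 0.0258 by limma) did not overlap between groups. Neither reached the fold threshold on log2(RPKM + 1). Chpf stood at 1.6, 0.7 and 1.5 RPKM in the infant and 0.2, 0.3 and 0.4 RPKM in the young adult libraries. Its young adult mean was 0.237 of the infant mean. At such levels the 1 added to each value shrinks the fold change. Csgalnact2 did not pass the test (log2 fold change -0.21, adjusted p 0.149 by limma).

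Of the 5 chondroitin and dermatan sulfotransferases 0 were called, and 4 of 5 had a higher fitted mean in young adult EC. Chst12, a 4-O-sulfotransferase, stood at 14.9, 10.7 and 13.1 RPKM in the infant libraries and at 16.6, 18.9 and 15.0 RPKM in the young adult ones. Its groups stood 0.1 RPKM apart, the table's own step, and the difference did not pass the test (log2 fold change 0.37 ± 0.14, adjusted p 0.0909 by limma). Chst15, which adds the second sulfate of chondroitin sulfate E, measured 10.6, 13.9 and 10.9 RPKM and 14.9, 13.9 and 11.0 RPKM, with overlap (0.16 ± 0.15, adjusted p 0.458 by limma). Chst11, another 4-O-sulfotransferase, had an adjusted p of 0.0398 by limma with a log2 fold change of 0.53 ± 0.15, below the fold threshold. Chst7 (0.08) and Chst14 (-0.26) overlapped between groups.

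Chst2 (chromosome 9, 95400926 to 95407270 on GRCm38.p6), a sulfotransferase of N-acetylglucosamine that helps make ligands for L-selectin and keratan sulfate, was called lower. It stood at 10.9, 9.7 and 11.4 RPKM in the infant libraries and at 4.0, 3.3 and 5.5 RPKM in the young adult ones. The groups did not overlap, and infant replicate 2 lay at 0.87 of the other infant libraries. The mean fell from 10.7 ± 0.874 to 4.27 ± 1.12 RPKM (log2 fold change -1.17 ± 0.16, adjusted p 0.00339 by limma), and the call held with any 1 library left out.

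Of the 4 hyaluronan genes 1 was called higher and 1 lower. Hyal2, a hyaluronidase anchored to the cell surface that cuts long hyaluronan into pieces, had the highest mean RPKM of all 39 members in both groups. It stood at 63.5, 86.4 and 66.3 RPKM in the infant libraries and at 167.3, 164.8 and 151.1 RPKM in the young adult ones. The lowest young adult value was well above the highest infant value, which was that of replicate 2. The mean rose 2.24-fold, from 72.1 ± 12.5 to 161.1 ± 8.72 RPKM (log2 fold change 1.16 ± 0.14, adjusted p 0.00235 by limma), and the call held with any 1 library left out.

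Hyal1, the lysosomal hyaluronidase, lies 4171 bases from Hyal2 on chromosome 9 (Hyal2 at 107567873 to 107572778 and Hyal1 at 107576950 to 107581699 on GRCm38.p6). It stood at 23.3, 43.3 and 21.0 RPKM in the infant libraries and at 30.1, 40.1 and 44.6 RPKM in the young adult ones. The groups overlapped through infant replicate 2, and the difference did not pass the test (log2 fold change 0.43 ± 0.27, adjusted p 0.264 by limma). Without infant replicate 2 the log2 fold change was 0.75, still below the fold threshold, at an adjusted p of 0.0108 by limma. Hyal1 and Hyal3 overlap by 404 bases, so reads from the shared stretch cannot be assigned to either from these values, and Hyal3 stood at 1.4 RPKM or less in every library. Has1, the only hyaluronan synthase among the members, was low, at 1.5, 0.5 and 1.5 RPKM in the infant libraries and 0.2, 0.1 and 0.1 RPKM in the young adult ones. Its span (chromosome 17, 17833691 to 17855589 on GRCm38.p6) overlaps another gene. The call (log2 fold change -0.90 ± 0.22, adjusted p 0.0251 by limma) held only without infant replicate 2 (-1.14, adjusted p 3.7e-04) and was lost with any other library left out (adjusted p 0.0705 to 0.0966 by limma).

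**Figure D3:**
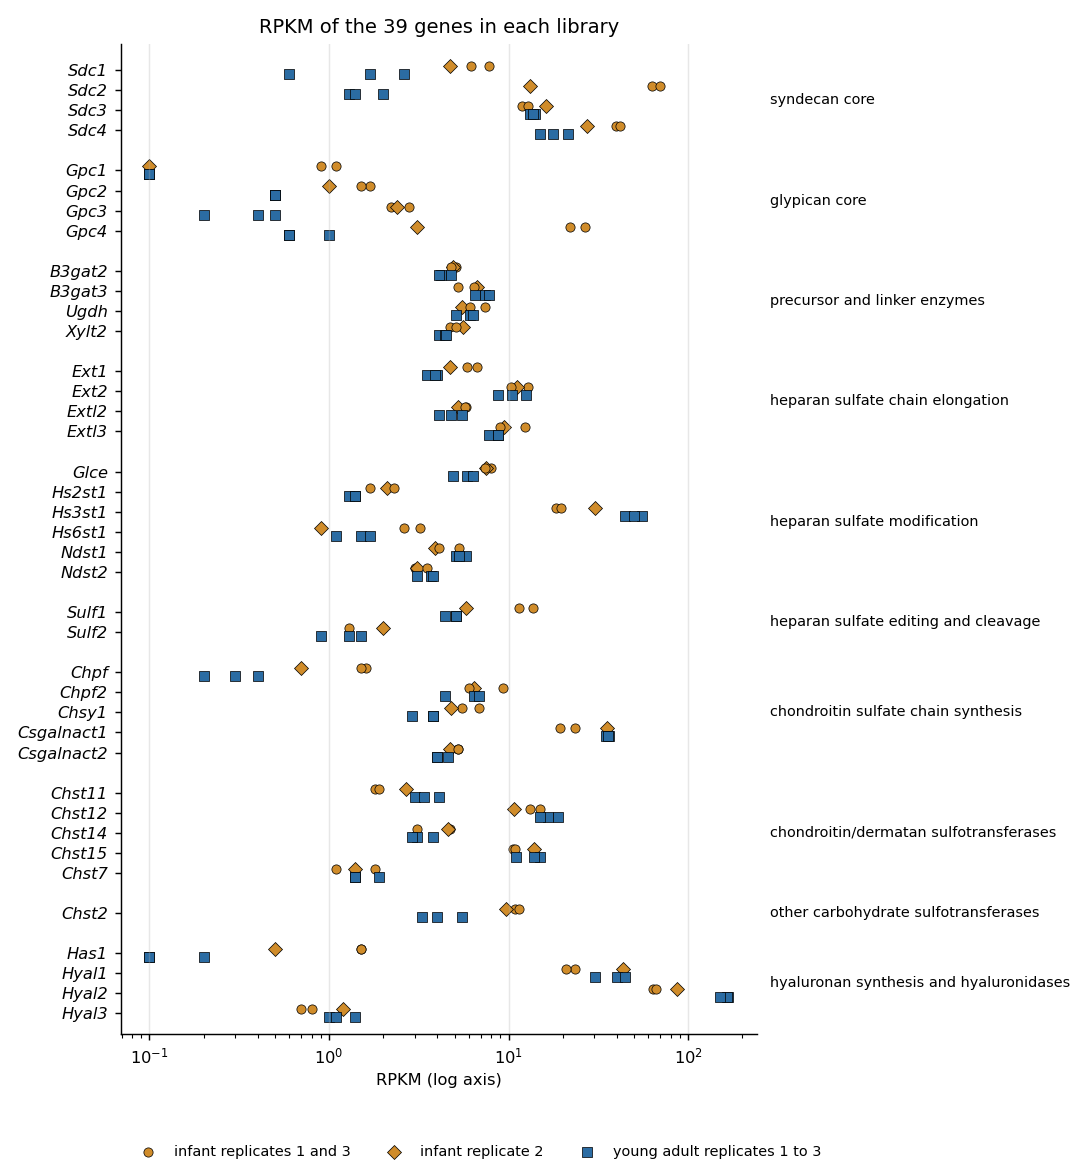
RPKM, on a log axis, of all 39 members in each of the 6 libraries, ordered by role, with infant replicate 2 as a diamond. Hyal2 and Hs3st1 are above every infant library in every young adult library, and for 7 of the 8 members called lower infant replicate 2 is the lowest infant library.

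The libraries of a group agreed better for most members than these examples show: over the 39 members the coefficient of variation had a median of 0.178 within the infant and 0.145 within the young adult libraries. Infant replicate 2 was the lowest infant library for 18 members and the highest for 10. As a ratio to the mean of the other infant libraries, the median over the 37 members with an infant mean of at least 1 RPKM was 0.904, and that of all genes was 1.0. The ratios of the called members ran from 0.128 (Gpc4), 0.2 (Sdc2), 0.333 (Has1) and 0.46 (Sulf1) through 0.671 (Sdc1), 0.674 (Sdc4), 0.87 (Chst2) and 0.96 (Gpc3) to 1.33 (Hyal2) and 1.59 (Hs3st1). The median of the fibroblast markers was 0.273, with single markers from 0.0338 to 3.27, that of the mural markers 0.609 and that of the endothelial markers 1.33. Gpc4, Sdc2, Has1 and Sulf1 thus had ratios below the mural median, and of the called members only Hyal2 and Hs3st1 had ratios above 1. The part of cells other than EC in these changes was not tested.

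**Figure D4:**
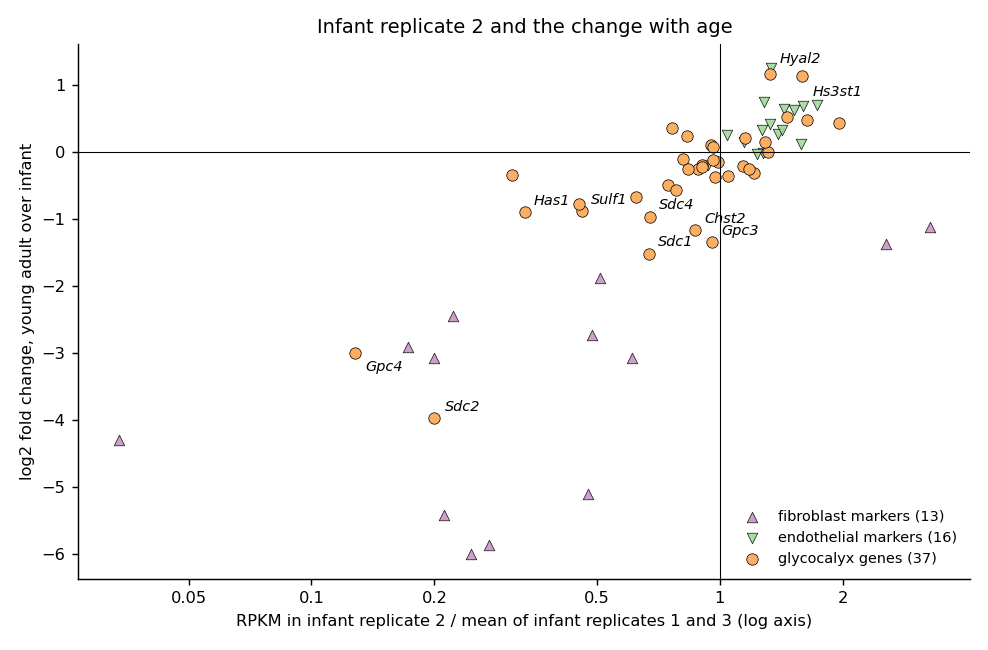
Ratio of infant replicate 2 to the mean of infant replicates 1 and 3 for the 37 members with an infant mean of at least 1 RPKM, against their log2 fold change (young adult minus infant), on a log axis for the ratio. The same is plotted for 13 fibroblast and 16 endothelial markers, whose median ratios are 0.273 and 1.33. Among the members, Gpc4 and Sdc2 lie at the lowest ratios and the lowest fold changes, while Hyal2 and Hs3st1 lie above 1 in both.

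Of 50 further genes of the pathway that the symbols above do not take, 1 was called higher and 11 lower (24.0% together, against 11.4% of all genes). Of the lower ones 4 (Hmmr, Tnfaip6, Hspg2 and Cspg4) reached 1 RPKM only in infant libraries and so entered the test through the group in which they were higher. The call held with any 1 library left out for 5 of the 12. The 11 genes of precursor supply (sugar nucleotides, the sulfate donor and their transporters) held 0 calls, as did the 12 genes of lysosomal breakdown. Of 5 genes of linker and dermatan steps 1 was called lower. This was Dse, an epimerase of dermatan sulfate, which measured 6.3, 4.5 and 7.0 RPKM in infant and 1.6 RPKM in each young adult library (log2 fold change -1.40 ± 0.15, adjusted p 0.00157 by limma). Of 6 genes of hyaluronan binding and breakdown 4 were called lower, Hapln1, Tnfaip6, Hmmr and the hyaluronan receptor Cd44. With 1 library left out, Cd44 and Hmmr kept the call only without infant replicate 2 (adjusted p 0.0625 to 0.0933 by limma without another library) and Tnfaip6 only without infant replicate 2 or young adult replicate 2. Among them Hapln1, a link protein that ties hyaluronan to proteoglycans, measured 4.9, 3.2 and 5.2 RPKM and 0.7, 1.0 and 1.1 RPKM (-1.48 ± 0.18, adjusted p 0.00216 by limma). The hyaluronan receptor Lyve1 was not in this hyaluronan list but among the 4 lymphatic endothelial markers, of which it alone was called higher (log2 fold change 1.65). Lyve1 stood at 68.6, 171.4 and 82.7 RPKM in the infant libraries and at 396.4, 307.9 and 252.9 RPKM in the young adult ones. Of 16 secreted and other proteoglycan cores 1 was called higher and 6 lower. The higher one was Thbd, the thrombin receptor thrombomodulin (log2 fold change 0.84 ± 0.18, adjusted p 0.0162 by limma). Its call was lost with any library but infant replicate 2 left out, at an adjusted p of up to 0.0706 by limma. Aspn, a small leucine-rich protein of connective tissue, had the greatest fall, from 194.5, 54.4 and 179.1 RPKM to 3.7, 3.9 and 3.1 RPKM (-4.78 ± 0.43, adjusted p 9.98e-04 by limma). For Dse, Hapln1 and Aspn the groups did not overlap and infant replicate 2 was the lowest infant library. Of this list Dcn and Lum also stand among the fibroblast markers and Cspg4 among the mural markers.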

How the data were processed

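RNA-seq of sorted lung EC was analysed in 3 infant and 3 young adult libraries, grouped by title. According to the methods, RNA was amplified with the SMARTer Ultra Low kit and sequenced as paired ends on a HiSeq2000, and the authors aligned reads with STAR to mm10, counted on the RefSeq annotation and used DESeq2. The deposited values are RPKM, rounded by the authors to 1 decimal, in 17241 transcript rows. The STAR version and the program that made the RPKM are not given in the sources used here. 0 further columns held values. Each RPKM depends on the total of mapped reads, so an abundant transcript lowers all others. Depth is unknown.

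24 rows with symbols turned into dates were restored. For each gene the row with the highest mean RPKM was kept (5 members had more than 1 row). limma 3.58.1 in R 4.3.3 replaced the count test, which RPKM do not allow: lmFit and eBayes with trend on log2(RPKM + 1), age group as the only term, over genes with at least 1 RPKM in at least 1 library, with Benjamini-Hochberg adjustment. A call needs an adjusted p under 0.05 and a log2 fold change beyond 0.81 in either direction, the threshold of the study. Fold changes on this scale understate those of low genes. Tested on simulated data drawn from the mean and variance of each gene, the step recovered 89% of 200 genes changed by 1.5 (log2) among 12458 in the young adult against infant comparison, with 2 unchanged genes called. The missed genes had a higher SD (median 0.389 against 0.154, log2 scale). Its pass mark was lowered after 89% had been seen.

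Members, role groups and marker lists were chosen with earlier results of these data known. Named with values were every called member, the 2 most abundant of each role group and, per list of further pathway genes, the called gene with the greatest change. Sdc3, Ext1, Chsy1, Chpf, Chst11, Gpc1, Gpc2, Hyal3, the other members not called, Thbd, Tnfaip6, Hmmr, Cd44, Hspg2, Cspg4 and Lyve1 were named after their values were seen. 1 matching symbol is not reported here. Positions are whole genes in RefSeq on GRCm38.p6. Alternatives were other pseudocounts, filters, scalings, choices of transcript row, variants of the test, and leaving out each library.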

Additional observations from a re-analysis of the deposited data

How the results depend on the processing

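The count of members called (10) was 5 with a pseudocount of 5, 16 with the adjusted p alone and 1 in a test against the fold threshold itself (limma's treat), and ran from 6 to 12 with each library left out. Of the 2 higher, treat left 0. The 8 lower became 3 with a pseudocount of 5, 13 with the adjusted p alone and 1 with treat, and 4 to 10 with each library left out. All genes called (1424) became 578, 3176 and 176 under the same 3 settings, and 842 to 1874 with each library left out. The further pathway genes called (12) became 6, 19 and 2, and 5 to 14. With a pseudocount of 0.1 the calls were 12 members (10 of them lower), 1957 genes and 13 further pathway genes. Of the 15 settings that keep all libraries, Sulf1 was lost under 7 and Has1 under 4 (a pseudocount of 5, a filter on the mean, quantile normalization and treat).

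Quantile normalization moved the all-gene median (log2 fold change) from -0.07 to 0.04 and the split of calls from 415 higher and 1009 lower to 532 and 611; scaling without globin genes moved them to -0.16, 344 and 1184. Hyal2 and Hs3st1 stayed higher and called under both. Values near 0 changed sign: Ext2 (-0.12) ran from -0.234 to 0.005 with each library left out (0.005 without young adult replicate 1), and Ugdh (-0.10) from -0.181 to 0.004 (0.004 without infant replicate 1) and was 0.022 with quantile normalization. The difference in the Gpc3 share (3.16 percentage points) ran from -2.28 (without infant replicate 1) to 12.4, and was -0.642 without infant replicate 3. Deviations from the group means correlated at 0.0282, -0.11 and -0.0208 between same-numbered libraries, and at -0.122 to 0.111 between the others. With 3 libraries a group, these values cannot settle whether libraries were paired by number. With the replicate block 9 members and 1371 genes were called.

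Unknown depth, a step of 0.1 RPKM for members under 1 RPKM, and 3 libraries a group limit these values. Among single genes and minor values, 458 comparisons kept direction and side of the threshold, 41 fell below it and 1 rose above it.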
